A study of Gallus gallus with 4 samples.

Results

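Head-to-head pairs of transcription units (TUs) with close 5′ ends were described in a transcript assembly made from chicken oocytes in which lampbrush chromosomes (LBCs) are present. A head-to-head, or divergent, pair consists of a TU on the reverse strand and a TU on the forward strand whose 5′ ends face each other, so that transcription runs away from a shared middle. The pairs were selected on positions, exon number and strand in the assembly. Each StringTie gene counted as 1 TU, and the transcript of highest FPKM (mapped fragments scaled to exon length and sequencing depth) stood for it. A pair required at least 2 exons in each TU, a strand that fitted the read set it was assembled from, 5′ ends no more than 1000 bp apart, and neither TU nested in the other. On chromosomes 1 to 15 and 17 to 28 this gave 1218 pairs. They were formed by 2434 TUs, 1218 forward and 1216 reverse, which was 16.4% of the 14878 TUs that met the exon and strand conditions there (eligible TUs). The whole assembly held 22884 TUs, 11420 forward and 11464 reverse, of which 20425 lay on these 27 chromosomes. On these chromosomes 5138 had 1 exon and 409 had several exons and a strand against their read set, and these were not eligible.

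The study asked how transcription shapes the chromatin domains of LBCs and how the orientation of neighbouring TUs relates to domain borders. Stranded poly(A) RNA-seq libraries were made from single wild-type (WT) oocytes with LBCs, of which 2 came from nuclei and 2 from ooplasm, with no treated group and no age given. Their unique reads had been pooled by strand, together with earlier total RNA libraries of oocyte nuclei, before assembly, and the methods do not say whether ooplasm reads entered. No value therefore belongs to 1 library, no replicate error exists, the depth per library is unknown, and every comparison below is a description without a test.

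LBCs are the extended meiotic chromosomes of growing oocytes, in which very active transcription draws DNA out of condensed chromomeres into lateral loops that carry nascent RNA. Divergent gene pairs are common in vertebrate genomes, and many are driven from 1 short bidirectional promoter region, often a CpG island free of nucleosomes, where separate polymerase complexes start in opposite directions. Close divergent 5′ ends can also belong to a protein-coding gene and an antisense noncoding transcript that starts beside it. The TUs of the assembly carry identifiers only (REV or FORW and a number), so neither gene functions nor the identity of the labelled oocytes could be checked from marker genes. Coordinates are those of the telomere-to-telomere chicken assembly ASM2420605v2.

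The 5′ ends of the pairs piled up in a narrow range. The distance was taken as the start of the forward TU minus the end of the reverse TU, so that values of 0 or below mean overlap of both transcripts. The forward 5′ end lay 1 to 100 bp from the reverse one in 240 pairs and 101 to 200 bp from it in 213, which together made 453 of the 1218 pairs (37.2%). The next bin of 100 bp held 55 pairs and the last one, above 900 and up to 1000 bp, held 8. Among overlapping pairs the fullest bins of 100 bp held 89 pairs (distances above -300 and up to -200 bp) and 83 pairs (above -400 and up to -300 bp), and the bin at the limit of overlap held 31. The limit of 1000 bp fixed the range of these values, so that only their shape is informative.

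**Figure D1:**
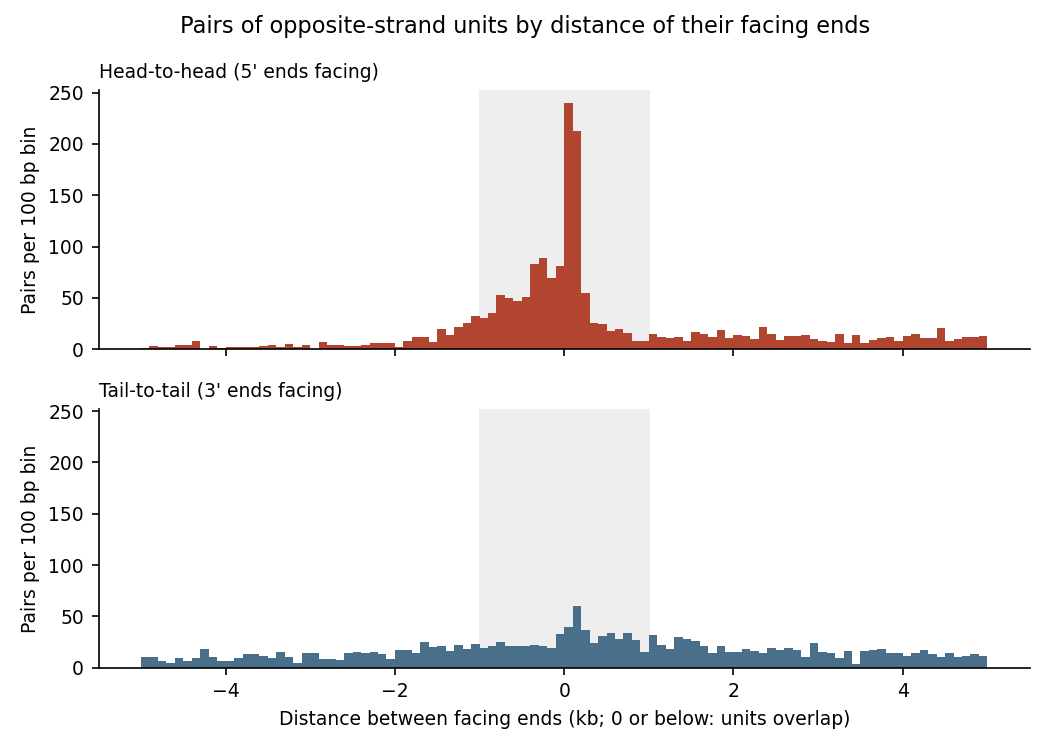
Number of TU pairs per 100 bp of distance between the facing ends (x axis in kb, from -5 to 5, values of 0 or below are overlaps), for head-to-head pairs above and tail-to-tail pairs below; the grey band marks the range that defined a pair. The head-to-head count reached 240 and 213 pairs in the first 2 bins to the right of 0, against 40 and 60 tail-to-tail pairs.

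The mirror arrangement, tail-to-tail pairs with 3′ ends within 1000 bp, was counted from the same eligible TUs by the same conditions. There were 1218 head-to-head pairs against 553 tail-to-tail pairs, and head-to-head pairs were the more numerous on each of the 27 chromosomes. The excess was confined to 2 of the 3 distance classes within the limit. At 1 to 200 bp there were 453 head-to-head against 100 tail-to-tail pairs, and among overlaps of up to 1 kb there were 58.8 against 22.3 pairs per 100 bp. At 201 to 1000 bp the density was lower, 22.0 against 28.8, with 176 head-to-head and 230 tail-to-tail pairs. Beyond the limit the head-to-head density was also lower, with 12.2 against 16.6 pairs per 100 bp at over 1 to 5 kb and 6.33 against 13.0 among overlaps of over 1 to 5 kb, and at over 5 to 20 kb it was 9.51 against 10.1.

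Overlapping and non-overlapping 5′ ends were about equally frequent. The transcripts overlapped in 589 pairs (48.4%, 95% Wilson interval 45.6 to 51.2%, which treats the pairs as independent counts) and did not in 629. Tail-to-tail pairs overlapped in 223 of 553 cases (40.3%, 36.3 to 44.5%). The overlap had a median of 374 bp (quartiles 196 and 646 bp), against 487 bp in tail-to-tail pairs. Where the 5′ ends were apart, a median of 123 bp lay between them (quartiles 72 and 219 bp), against 410 bp between the 3′ ends of tail-to-tail pairs. The absolute distance had a median of 202 bp in head-to-head and 442 bp in tail-to-tail pairs.

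The closest 5′ ends met within 2 bp. REV.4113 and FORW.4264 on chromosome 4 shared the single base 53214486 as their 5′ end, at 2.64 and 5.15 FPKM. REV.5785 ended at 9304924 and FORW.5917 began at 9304925 on chromosome 7, with no base between them, at 5.14 and 2.76 FPKM. REV.8567 and FORW.8751 on chromosome 18 overlapped by 2 bp at 5970215 to 5970216, with 21.4 and 11.3 FPKM. One base separated REV.153 from FORW.172 on chromosome 1 (16.1 and 30.01 FPKM), and 3 bp were shared by REV.3168 and FORW.3294 on chromosome 3 (0.923 and 2.56 FPKM). All transcript combinations of these 5 pairs, between 3 and 12 for each pair, met the limit, and their partners were between 1.86-fold and 2.77-fold apart in FPKM.

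Just inside the limit, the 5 pairs with the largest absolute distances were all overlaps, with distances of -1000, -998, -997, -989 and -984 bp. Just outside it, the nearest pairs had distances of 1005, 1007, -1008, -1009 and -1013 bp. The pair at -1000 bp joined REV.9249 and FORW.9422 on chromosome 22 at 14.1 and 0.577 FPKM. The nearest pair outside, REV.7889 and FORW.8044 on chromosome 14, had 14.1 and 6.87 FPKM.

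Most overlaps lay in the first exon of at least 1 partner. In 211 of the 589 overlapping pairs (35.8%) the whole overlap was inside the first exon of both TUs, in 329 (55.9%) it was inside the first exon of 1 TU and passed a splice site of the other, and in 49 it exceeded both first exons. Where it was inside 1 first exon only, that exon belonged to the weaker TU, by FPKM, in 223 pairs and to the stronger TU in 106. Over all pairs, overlapping or not, the weaker TU had the longer first exon in 739 (60.7%). Since FPKM is divided by exonic length, a long first exon also enters this order. Exonic bases shared on both strands had a median of 210 bp, and 3 overlapping pairs shared none. The first exons of overlapping pairs had a median of 500.5 bp, against 241.5 bp in pairs with 5′ ends apart, and the widest overlaps had the longest ones, with 700.5 bp at overlaps of over 500 bp. The same 5′ end sets both the distance and the length of the first exon, so this relation is in part built in. Where exons of both strands overlap, strand-specific reads alone separated the partners.

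In most pairs with several transcript combinations the 5′ ends did not depend on 1 isoform. Both TUs had a single transcript in 248 pairs. In the other 970, all combinations of a forward and a reverse transcript met the limit in 725 (74.7%). Over all pairs 4380 of 5079 combinations (86.2%) met it. The combination of the representative transcripts met it in every pair by selection, which raises this share. The 248 pairs with a single combination could not fail and say nothing about isoforms. Overlap was less fixed than closeness, since 102 overlapping pairs had a combination without overlap and 119 pairs with 5′ ends apart had one with overlap. Both first exons were covered by at least 5 reads per base in 1037 pairs (85.1%).

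TUs in head-to-head pairs were more active than the other eligible TUs. Activity was compared as the FPKM percentile of a TU among all TUs of its read set, since forward and reverse reads had been assembled and scaled separately. This measure is a level of pooled RNA. The paper instead took the lower of intron and exon FPKM, to estimate nascent RNA. The median percentile was 74.2 (quartiles 55.3 and 87.5) in the 2434 paired TUs and 59.3 (35.8 and 80.1) in the 12444 unpaired ones, a difference of 14.9 points. The difference was 9.03 points when at least 3 exons were required. It was 8.47 points when all eligible TUs, paired and unpaired, had to reach 1 FPKM. The median FPKM was 6.89 in paired and 3.08 in unpaired TUs, and the median coverage was 73.1 reads per base in paired and 32.5 in unpaired TUs. A weakly covered first exon can shift an assembled 5′ end and so move a weak TU out of the limit. First exons had fewer than 5 reads per base in 7.77% of paired and 15.2% of unpaired TUs. The part of this in the difference was not tested. Paired TUs were the higher on 26 of 27 chromosomes, with a mean difference of 13.2 ± 5.76 points (SD over chromosomes, n = 27). The difference was largest on chromosome 6 (20.5 points), and chromosome 23 was the exception (-1.75 points). Paired TUs ranged from 0.141 to 305.2 FPKM.

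The share of eligible TUs in a head-to-head pair was 5.71% in the lowest class of 10 percentile points and 7.62, 9.40, 11.3, 10.8, 13.3, 17.3, 21.7, 24.4 and 23.4% in the classes above it. It was thus several times as high in the upper classes as in the lowest, and level in the last 3. The part of first-exon coverage in this rise was not tested. Tail-to-tail pairs held 3.16% of the lowest class and 12.4 and 11.3% of the highest ones. A close opposite-strand partner was therefore more frequent among active TUs at either end of the TU. The 272 TUs with both kinds of partner had the highest median percentile, 79.6, followed by 75.9 in the 831 with a tail-to-tail partner only, 73.6 in the 2162 with a head-to-head partner only, and 58.0 in the 11613 with neither. A tail-to-tail partner was present in 11.2% of the paired and 6.68% of the unpaired TUs.

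**Figure D2:**
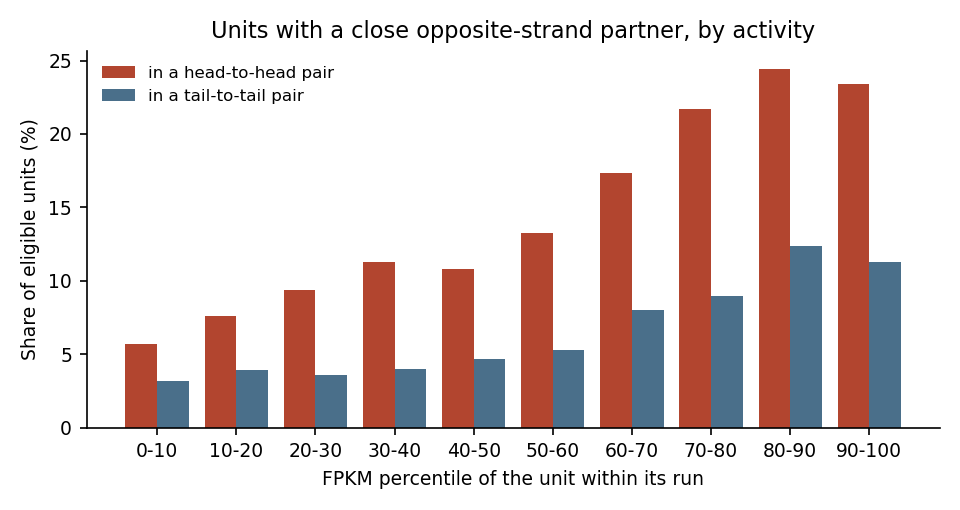
Share of eligible TUs (y axis, percent) that were in a head-to-head or a tail-to-tail pair, in each class of 10 points of the FPKM percentile within the read set (x axis). The head-to-head share was 5.71% in the lowest class and 24.4% in the class from 80 to 90, and exceeded the tail-to-tail share in all 10 classes.

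Paired TUs also had more exons and shorter introns at their start. They had a median of 8 exons against 5 in unpaired TUs, and 16.02% had the minimum of 2 exons against 28.8%. Their span was shorter, 12.8 kb against 15.6 kb, and this held on 21 of 27 chromosomes. More exons and a shorter span were not particular to head-to-head pairs. TUs with a tail-to-tail partner only had a median of 9 exons and 14.1 kb. Those with a head-to-head partner only had 8 exons and 13.3 kb, and those with neither had 4 exons and 15.8 kb. The first intron had a median of 791.5 bp in paired and 1280.5 bp in unpaired TUs. First exons differed little in the median (327 and 314 bp), but their upper quartile was 764 bp in paired and 1139.25 bp in unpaired TUs. Exonic length was 4064 bp against 5039.5 bp, and 7.77% of paired against 15.2% of unpaired TUs had fewer than 5 reads per base over the first exon.

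The difference in activity varied between classes of exon number, without a steady rise or fall. Among TUs of 2 exons, the median percentile was 41.3 in paired and 39.6 in unpaired TUs, a difference of 1.67 points. Among TUs of 3 to 4 exons it was 67.4 against 46.1, the widest gap. With 5 to 8 exons it was 79.2 against 70.0, with 9 to 16 exons 81.1 against 76.8, and with 17 or more 79.4 against 76.9. Paired TUs were thus the higher in each exon class, with the narrowest gap at 2 exons and the next at 17 or more. The share in a head-to-head pair was 9.83, 13.7, 19.3, 21.8 and 20.2% in these classes. The share in a tail-to-tail pair also rose, with 3.00, 4.85, 8.92, 10.7 and 12.3%. The part of exon number in the difference was not tested.

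Within classes of span the difference was widest among short TUs. Under 2 kb the median percentile was 54.1 in paired and 23.7 in unpaired TUs, and at 2 to 5 kb it was 73.1 against 40.7. It was 74.1 against 58.1 at 5 to 10 kb, 77.6 against 61.0 at 10 to 20 kb and 76.2 against 62.7 at 20 to 50 kb. In TUs of 100 kb or more it was 65.8 against 63.4. A head-to-head partner was present in 10.6% of the TUs of 100 kb or more and in 19.2% of those of 5 to 10 kb. For a tail-to-tail partner these shares were 4.60 and 8.35%.

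The FPKM values of the 2 partners, as levels of pooled RNA, were nearly unrelated. Over the 1218 pairs, the FPKM percentiles of forward and reverse TUs had a Spearman's rho of 0.0664, and log10 FPKM had a Pearson's r of 0.0664, given as a description across pairs that share the same pooled reads. The partners differed by a median of 20.3 percentile points (quartiles 8.65 and 36.5), or 3.48-fold in FPKM (quartiles 1.84 and 8.33, with 1.27 and 19.2 at percentiles 10 and 90). They were within 2-fold of each other in 348 pairs (28.6%) and 10-fold or more apart in 244 (20.03%), among them 11 pairs of 100-fold or more. The widest ratio was 295.5. The forward TU was the stronger by percentile in 612 pairs (50.2%), a share that ranking each strand within its own read set keeps near an even split.

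**Figure D3:**
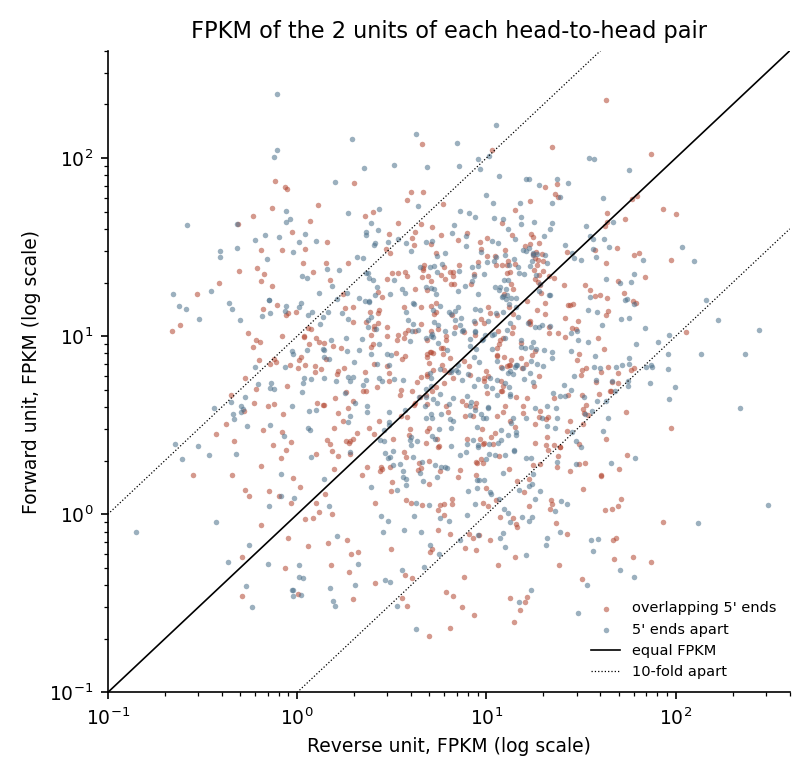
FPKM of the reverse TU (x axis, log scale) and the forward TU (y axis, log scale) of each of the 1218 head-to-head pairs, coloured by overlapping or separate 5′ ends; the solid line marks equal FPKM and dotted lines a ratio of 10. The points show almost no slope (rho 0.0664), and 244 pairs lie on or beyond the dotted lines.

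Re-pairing the same TUs gave almost the same balance. All 81556 combinations of a forward and a reverse member of the same chromosome, other than the true pairs, were enumerated. True pairs differed by 20.3 points and re-paired ones by 20.7, and the median ratio was 3.48 in true and 3.65 in re-paired ones. Within 2-fold lay 28.6% of true pairs and 28.2% of re-paired ones. At 10-fold or more lay 20.03% of true pairs and 23.1% of re-paired ones. Both partners were at or above the median of their read set in 770 true pairs (63.2%) and in 62.6% of re-paired ones, and both reached percentile 90 in 51 pairs (4.19%) and in 3.65%. Both partners lay under the median in 53 pairs (4.35%), against 4.39% of re-paired ones.

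Against all eligible TUs the pairs looked different. When every eligible forward TU was combined with every eligible reverse TU of its chromosome, the difference was 27.1 points, the ratio 4.27 and the share with both TUs at or above the median 38.9%, against 20.3 points, 3.48 and 63.2% in head-to-head pairs. The values of re-paired members, above, had the same activity distribution as the pairs and lay close to them.

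**Figure D4:**
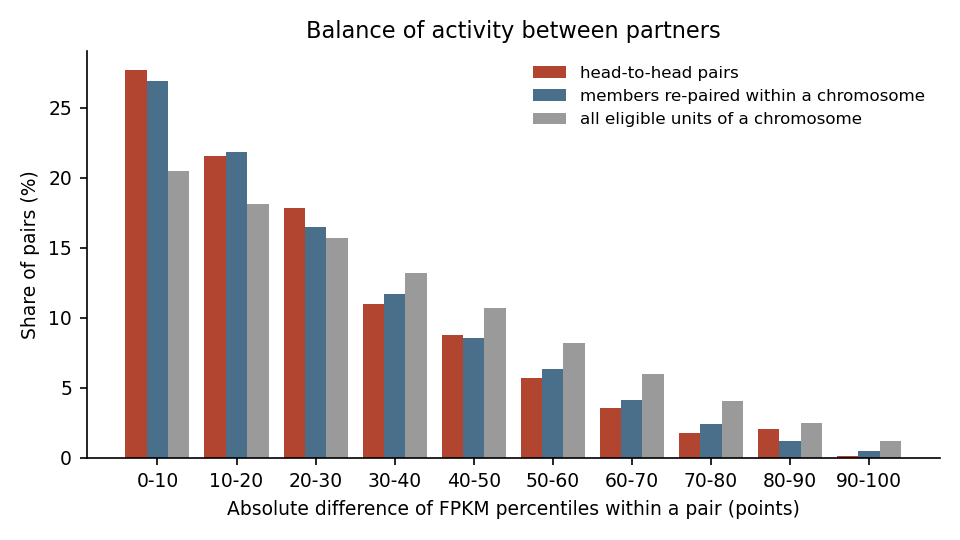
Share of pairs (y axis, percent) by the absolute difference of the FPKM percentiles of both TUs (x axis, classes of 10 points), for the head-to-head pairs, for all combinations of their members within a chromosome, and for all combinations of eligible TUs within a chromosome. The combinations of members leave out the true pairs. In the class under 10 points the shares were 27.7, 26.9 and 20.4%.

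The distance between 5′ ends bore little relation to the balance. Overlapping pairs had a median ratio of 3.42 and a rho of 0.0677, and pairs with 5′ ends apart had 3.58 and 0.0578. Partners were within 2-fold in 30.1% of overlapping pairs and in 27.2% of those with 5′ ends apart. Over 7 classes of distance within the limit the median difference ran between 18.3 and 21.5 points without an order, and rho between 0.0103 and 0.228, with the highest value in the class of 501 to 1000 bp (70 pairs). Head-to-head pairs within the limit (20.3 points) were close to those over 1 to 5 kb apart (21.5 points, 487 pairs) and over 5 to 20 kb apart (21.8 points, 1427 pairs). Pairs with overlaps of over 1 to 5 kb were less balanced, with 25.8 points, a ratio of 4.54 and a rho of -0.105 (253 pairs). Tail-to-tail pairs within their limit differed by 17.9 points, with a ratio of 3.45 and a rho of 0.126.

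The stronger partner had the shorter first exon and the larger number of exons. The stronger TUs were at a median percentile of 84.8 (13.9 FPKM) and the weaker ones at 60.0 (3.19 FPKM), an order that the choice of stronger and weaker fixes. The first exon was 263.5 bp in stronger and 423 bp in weaker TUs, and it was the shorter in the stronger TU in 739 pairs. Stronger TUs had 9 exons against 6, with more exons in 702 pairs, fewer in 437 and equal numbers in 79. Their exonic length was lower (3647 against 4704.5 bp), and exons took 30.5% of the span against 48.8%. Spans differed less, 13.8 against 11.7 kb, and the stronger TU was the longer in 631 pairs (51.8%). Only the minimum of 2 exons was met by 8.62% of stronger and 23.4% of weaker TUs. FPKM is a value per exonic length, so that exonic length enters both sides of this comparison. Among unpaired TUs the median percentile also rose with exon number, from 39.6 at 2 exons to 76.9 at 17 or more. Whether partners differ in this from re-paired TUs was not tested.

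In the 244 pairs of 10-fold or more, the weaker TU had 2 exons in 101 (41.4%), against 51 of the 348 pairs within 2-fold (14.7%). These weaker TUs had a median of 3 exons, 0.964 FPKM and 10.2 reads per base, against 8 exons, 6.69 FPKM and 70.8 reads per base in pairs within 2-fold. The 5′ ends overlapped in 47.1% of the pairs of 10-fold or more and in 50.9% of those within 2-fold. The split by ratio itself fixes a lower FPKM, and with it a lower coverage, in the weaker TUs of the pairs of 10-fold or more.

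Pairs ranked by the FPKM of their weaker partner, a choice that fixes high values on both strands, are given next. The first was REV.10158 and FORW.10279 on chromosome 28, at 3879137 to 3881680 and 3880957 to 3883381, with 74.1 and 105.4 FPKM. They overlapped by 724 bp, of which 548 bp were exonic on both strands, and spanned only 2.54 and 2.42 kb with 8 and 6 exons. Their first exons had 94.4 and 57.7 reads per base, against 779 and 1119 over the whole TUs. In the other pairs of the first 10, first exons were also covered less than the whole TUs. REV.232 and FORW.237 on chromosome 1 (35250360 to 35254429 and 35253736 to 35278993) had 62.2 and 61.3 FPKM and shared 694 bp. In this pair a first exon of 1369 bp in the reverse TU lay over 2 parts of the forward TU. These were its first exon of 197 bp and the start of its first intron of 2376 bp. REV.5180 and FORW.5344 on chromosome 5 (55237375 to 55248282 and 55247904 to 55272635) had 59.0 and 58.6 FPKM and overlapped by 379 bp.

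REV.663 and FORW.705 on chromosome 1 had 56.7 and 85.2 FPKM with 41 bp between them, and long first introns of 11312 and 12183 bp. REV.6131 and FORW.6291 on chromosome 8 had 85.2 and 51.7 FPKM and a 345 bp overlap. The pair REV.5799 and FORW.5919 on chromosome 7 had 100.8 and 48.3 FPKM, and only 1 of its 3 transcript combinations met the limit. The remaining pairs of the first 10 lay on chromosomes 4 (54.2 and 45.5 FPKM), 26 (46.8 and 43.6), 20 (43.3 and 43.7) and 22 (43.3 and 49.0). The ratio within these 10 pairs was between 1.01 and 2.09, and 8 of the 10 overlapped, against 24 of all 51 pairs with both partners at percentile 90 or more (47.1%). On chromosomes 2 and 3, the pairs with the highest weaker FPKM were REV.1411 and FORW.1526 (41.4 and 60.0 FPKM, 117 bp between them) and REV.3476 and FORW.3621 (94.9 and 26.9 FPKM, overlapping by 551 bp).

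The 5 pairs with the widest difference of percentiles were taken among those whose stronger TU was at percentile 90 or more, so that a strong and a weak partner follow from the choice, and they are not the 5 widest ratios. REV.5560 on chromosome 6 (24125326 to 24127279) had 0.263 FPKM and 2.76 reads per base, and its partner FORW.5685 (24128043 to 24131584) had 42.2 FPKM and 447 reads per base, 763 bp away. FORW.7769 on chromosome 13 (9487451 to 9488935) had 0.279 FPKM, and REV.7609 (9477390 to 9487396) had 30.3 FPKM at 54 bp. In the other pairs named by this rule, REV.9180 and FORW.9361 on chromosome 21 had 34.0 and 0.399 FPKM, REV.5932 and FORW.6102 on chromosome 7 had 60.0 and 0.444 FPKM, and REV.10211 and FORW.10352 on chromosome 28 had 0.390 and 30.02 FPKM. The weaker TU had 2 exons and 2.76 to 4.72 reads per base in each of the 5, above the assembler's minimum of 1.2 reads per base, and the 5′ ends were apart in each. The stronger TU had between 4 and 21 exons, and the ratios lay between 77.1 and 160. Across all pairs, the weaker TU was under percentile 20 and the stronger at 90 or more in 16, and in 12 of these the weaker TU had 2 exons.

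The pairs differed widely in size. The summed span of both TUs had a median of 31.9 kb (quartiles 17.9 and 56.6 kb), single TUs ran between 1.146 and 390.5 kb, and 119 pairs exceeded 100 kb in sum. Both TUs were under 5 kb in 53 pairs and both at 20 kb or more in 168 (13.8%). In 130 pairs 1 TU was under 5 kb and the other at 20 kb or more. The spans of both partners had a rho of 0.127, first introns one of 0.150 and exon numbers one of -0.00132, so that the size of 1 partner said little about the other.

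The longest pairs were in most cases 1 very long and 1 ordinary TU. REV.3905 on chromosome 4 (32496307 to 32886847) spanned 390.5 kb with 58 exons at 5.89 FPKM, and overlapped by 568 bp with FORW.4029 (32886280 to 32894404), of 8.12 kb and 55.1 FPKM. FORW.5495 on chromosome 6 spanned 346.1 kb at 12.6 FPKM beside REV.5365 of 13.2 kb and 26.0 FPKM. FORW.1938 on chromosome 2 spanned 326.4 kb at 0.819 FPKM beside REV.1833 of 14.9 kb and 3.69 FPKM, and 8 of 12 transcript combinations of this pair met the limit. REV.1820 on chromosome 2 spanned 291.0 kb at 11.9 FPKM beside FORW.1923 of 24.8 kb and 5.61 FPKM. The exception was the pair of REV.1962 and FORW.2067 on chromosome 2, which were both long (238.4 and 88.1 kb), with 10.2 and 14.6 FPKM and an overlap of 392 bp that was exonic in both over 390 bp. In 3 of these 5 pairs the longer TU was the weaker by at least 2-fold.

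A TU seldom took part in more than 1 pair. REV.3488 on chromosome 3 (107560604 to 107630462, 3.74 FPKM) faced FORW.3640 (1.21 FPKM), with which it overlapped by 28 bp, and FORW.3641 (1.45 FPKM), whose start lay 269 bp away. REV.8606 on chromosome 18 (8911474 to 8946844, 4.03 FPKM) overlapped by 797 bp with FORW.8792 (35.8 FPKM) and by 375 bp with FORW.8793 (4.93 FPKM). In each case both forward TUs overlapped each other. No other TU was in 2 pairs.

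Head-to-head pairs were present on all 27 chromosomes and denser on small ones. There were 532 pairs on chromosomes 1 to 5, 406 on chromosomes 6 to 15 and 280 on chromosomes 17 to 28, or 0.865, 1.73 and 2.82 pairs per Mb between the first and last TU. The share of eligible TUs in a pair was 14.5 ± 1.93% (SD over chromosomes, n = 5), 17.8 ± 2.59% (n = 10) and 19.5 ± 3.49% (n = 12) in these classes, which overlapped: it ran between 13.0% on chromosome 2 and 27.4% on chromosome 19, and chromosomes 20, 23, 24 and 26 lay below chromosome 5 (17.9%). The rise was not particular to head-to-head pairs. The share of eligible TUs in a tail-to-tail pair had a mean of 6.30, 8.37 and 9.34% over the chromosomes of these classes. The density of eligible TUs moved the same way, with a mean of 13.2, 20.6 and 31.5 per Mb over the same chromosomes. Its part in the density of pairs was not tested. Chromosome 25 had the most pairs per Mb (4.79) and chromosome 2 the fewest (0.644).

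The balance of the partners varied little with chromosome size. The median difference was 20.8, 19.7 and 20.2 percentile points in the 3 classes, and rho was 0.0708, 0.0825 and 0.0186. On single chromosomes rho was between -0.247 (chromosome 13) and 0.321 (chromosome 25) and was positive on 19 of 27. The summed span was 36.8 and 36.4 kb on the larger chromosomes and 20.3 kb on chromosomes 17 to 28. On chromosomes 17 to 28, paired TUs spanned 8.40 kb and unpaired ones 9.73 kb. The share of overlapping pairs was 50.6, 48.8 and 43.6%, and on single chromosomes it ran between 17.6% (chromosome 26, 17 pairs) and 63.6% (chromosome 12, 33 pairs). Paired TUs were at similar percentiles in the 3 classes (73.4, 74.4 and 75.8), and unpaired ones were higher on the small chromosomes (57.2, 58.1 and 66.0).

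**Figure D5:**
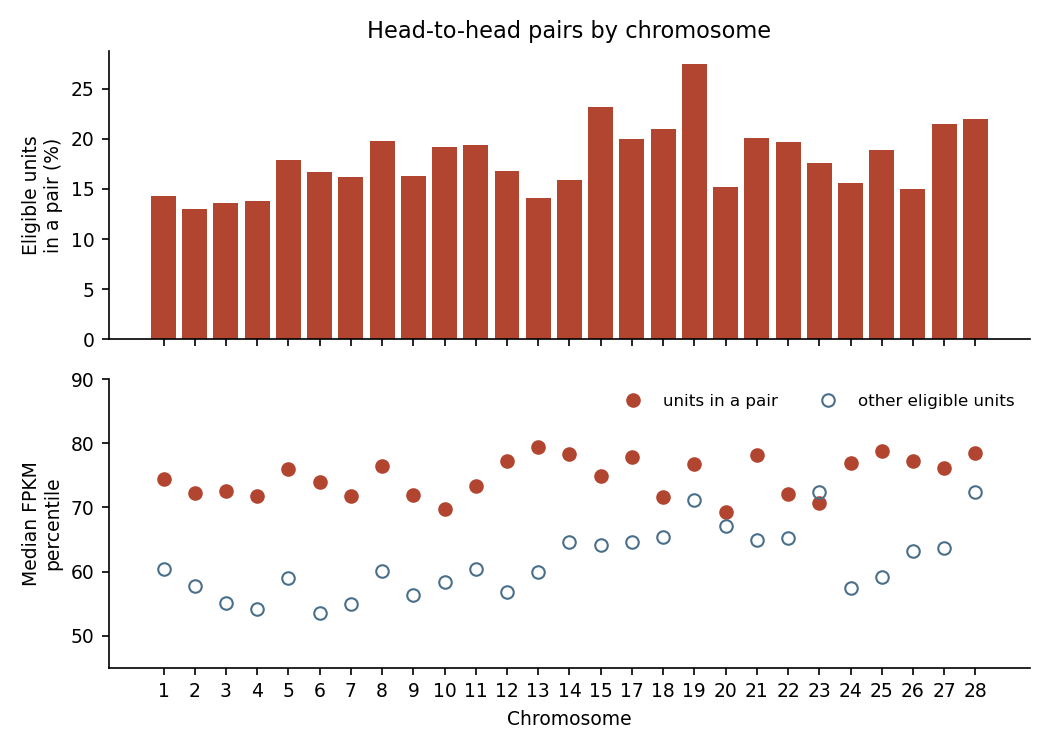
Top, share of eligible TUs that were in a head-to-head pair (percent) on each chromosome; bottom, median FPKM percentile of TUs in a pair (filled circles) and of other eligible TUs (open circles), on an axis from 45 to 90. The share was highest on chromosome 19 (27.4%), and paired TUs were higher on every chromosome except 23.

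Pairs lay at unequal intervals along the chromosomes, and the intervals between all eligible TUs were not measured beside them. The density of eligible TUs itself ran between 9.88 per Mb (chromosome 2) and 50.7 per Mb (chromosome 25). Its part in the spacing of pairs was not tested. The midpoints of consecutive pairs were a median of 306.5 kb apart (quartiles 96.8 and 1005 kb, 1191 intervals). Under 50 kb were 176 intervals, and 123 exceeded 2 Mb. The widest interval ran over 14.0 Mb of chromosome 3, between 79508696 and 93465606. The densest windows of 200 kb, counted on the midpoints of pairs, held 6 pairs each. There was 1 on the same chromosome 3 (members of 1.11 to 70.9 FPKM) and 1 on chromosome 18 (0.503 to 94.1 FPKM). Their midpoints spanned 155.6 and 194.0 kb. The outer bounds of their TUs were 105802152 to 106019960 and 10942182 to 11139027.

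Some pairs were joined by their tails. In 42 cases the forward TU of 1 head-to-head pair and the reverse TU of another formed a tail-to-tail pair, which made a run of 4 TUs with a median extent of 58.9 kb. The runs were not all separate. On chromosome 7 the pair REV.5931 and FORW.6100 closed the run from REV.5929 and opened the run to FORW.6102. The run with the highest FPKM in its weakest TU lay on chromosome 8, at 3401316 to 3529187. Its TUs REV.6115, FORW.6273, REV.6116 and FORW.6276 had 29.1, 27.6, 20.8 and 25.6 FPKM, and the facing ends in order were 317, 169 and 134 bp apart. The next, on chromosome 17 at 7708859 to 7725984, was uneven, with 42.9 FPKM in REV.8431, 212.7 in FORW.8562, 12.2 in REV.8432 and 9.80 in FORW.8600. Both of its head-to-head pairs overlapped, with distances of -293 and -765 bp.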

How the data were processed

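The deposited file was 1 transcript assembly. The authors trimmed adapters with cutadapt, aligned reads with HISAT2 to ASM2420605v2, split them by strand, removed duplicates with SAMtools, pooled the reads of all experiments and ran StringTie 2.2.2 separately on forward (FORW) and reverse (REV) reads. Per the file header, minimum coverage was 1.2 reads per base (3.5 with 1 exon), isoform fraction 0.05, junction reads 5 with an anchor of 10 bp, length 1000 bp and maximum gap 300 bp. The assembly gives the authors' coverage, FPKM and TPM for each transcript; coverage and FPKM were used, and TPM was not. Weakly covered first exons can shift an assembled 5′ end.

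Percentiles are mid-ranks of FPKM among all TUs of a run. Coordinates are 1-based. Pairs were found with Python 3.11.15, pandas 2.3.3, numpy 2.4.6 and scipy 1.17.1, figures were drawn with matplotlib 3.10.9, and the pairing was tested on simulated data. No test was made, since no value belongs to a sample. Members and lists were chosen with earlier results of these data known. Named pairs were the 10 with the highest weaker FPKM (and the first of each of chromosomes 1 to 5), the 5 most unequal with the stronger TU at percentile 90 or more, the 5 longest, the 5 closest, 5 on each side of the limit, and TUs in more than 1 pair. Runs of 4 TUs and dense windows were chosen after their values were seen. The alternatives, 11 in all, changed the limit, exon minimum, FPKM minimum, representative transcript, FPKM summing, percentile base, chromosomes and repeated membership.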

Additional observations from a re-analysis of the deposited data

How the results depend on the processing

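Each of 8 results was recomputed under 11 alternatives. Of the 88 values, 77 stayed within the margin (1.5 times for the count of pairs, the Wilson interval for shares, 1 SD over chromosomes otherwise), 11 moved beyond it and 0 changed sign. The alternatives of percentile base and FPKM summing could change only results on percentiles, so their other values stayed by construction. Under the change of percentile base rho also stayed by construction, since the order within each read set was kept. Only rho and the difference between paired and unpaired TUs could change sign. The margin of rho, an SD of 0.144, was wide against its value of 0.0664. A limit of 500 bp gave 40.0% overlapping pairs and 12.5% of eligible TUs in a pair. A limit of 2000 bp gave 20.2% in a pair and a median distance of 307 bp, as a wider limit admits wider pairs. The overlapping share was 52.8% with the longest-span transcript of each TU and 54.1% with the outer bounds of all its transcripts. The difference in percentile between paired and unpaired TUs was 9.03 points with at least 3 exons. It was 8.47 points with paired and unpaired TUs alike at 1 FPKM or more, which by construction leaves out weak TUs. Admitting TUs of 1 exon gave 2063 pairs, 20.6% of TUs in a pair and a median difference within pairs of 27.9 points. For the moved values given without a reason the cause was not tested. Over all alternatives the rho of partners stayed between 0.0380 and 0.0799. No paired analysis was possible because the reads of all libraries were pooled before assembly. The depth per library is unknown, TUs under the coverage minimum are missing from the assembly, and RNA levels do not measure transcription rate.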

Other observations

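Outside the 27 chromosomes, 107 head-to-head pairs met the same conditions. The sex chromosome Z held 55 pairs from 110 of its 831 eligible TUs (13.2%). Of these pairs 54.5% overlapped, the partners differed by a median of 17.6 percentile points, and the paired TUs were at a median percentile of 72.6 against 46.1 in unpaired TUs of Z. Chromosome W held 0 pairs among 60 eligible TUs. On chromosomes 16 and 29 to 38 there were 52 pairs, which took in 11.5% of 907 eligible TUs.

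Pairs were also counted with the 5137 TUs of 1 exon admitted whose strand fitted their read set. Of all TUs then admitted, 20.6% were in a pair, and of those with several exons 21.2%. A further 731 pairs joined a TU of several exons to a TU of 1 exon. The TU of several exons was the stronger in 91.1% of them, with a median of 6.12 FPKM against 0.554 FPKM in the TU of 1 exon, which spanned a median of 2.73 kb. The TUs of 1 exon in these pairs were at a median percentile of 18.7. Eligible TUs without a partner in the main pairs were at 59.3. No re-paired combinations were set beside the share of 91.1%. The 5′ ends overlapped in 51.8% and were 1 to 200 bp apart in 31.2%, against 48.4% and 37.2% in the pairs of TUs with several exons. In 114 pairs both TUs had 1 exon, with a median ratio of 2.24, and 35.1% had 5′ ends 1 to 200 bp apart. With any partner counted, 3161 TUs of several exons (21.2%) had a 5′ end within the limit of an opposite one. These TUs of 1 exon had at least 3.5 reads per base by the assembler's setting, and their strand rests on the stranded reads alone, since they have no splice junction.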
